A study of Mus musculus with 7 samples.

Results

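The genes described here are 10 genes expressed by mast cells or basophils, though not all by them alone: the granule proteases Cpa3, Mcpt8, Prss34, Cma1, Tpsb2 and Gzmb, the IgE receptor chains Fcer1a and Ms4a2, the histamine-forming enzyme Hdc and the IL-33 receptor Il1rl1. They were chosen by symbol, with earlier results of these data known, and each matched 1 row among the 48440 genes of the deposited table of normalized counts. RNA was sequenced from LSK cells, the lineage-negative, Sca1+, cKit+ bone marrow (BM) fraction that holds hematopoietic stem cells (HSCs) and multipotent progenitors. The cells were sorted from BM chimeric mice, which are C57BL/6 recipients given a lethal dose of 9.5 Gy and then unfractionated BM, and were collected on day 77. In the wild-type (WT) group the donor BM was wild-type (4 libraries), and in the PROSER1 KO group it came from mice with a constitutive, endonuclease-mediated knockout of PROSER1, a partner of the TET DNA demethylases (3 libraries). All recipients of both groups were thus irradiated and transplanted, no mark that separates surviving host cells from donor cells is described for these chimeras, and the ages of donors and recipients are not given in the sources used here. The labels call the libraries biological replicates without saying whether each is 1 mouse or a pool, so that p-values measure the spread between these libraries only.

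Mast cells and basophils arise in the BM from progenitors that express GATA2, and both bind IgE through the receptor FcεRI. Crosslinking of bound IgE releases histamine and proteases from their granules and starts the synthesis of lipid mediators and cytokines. Basophils mature in the BM and express Mcpt8 and Prss34, whereas mast cells complete their maturation in tissues, where Cma1, Mcpt4 and Tpsb2 are abundant. Cpa3 is shared by both cell types and is also transcribed in early progenitors, Gzmb is better known from cytotoxic lymphocytes, and Il1rl1 is also expressed by group 2 innate lymphoid cells. The antibodies listed for the sort include none against FcεRI.

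Depth was between 33143619 and 45140743 read pairs on genes per library. A normalized count is a number of read pairs divided by 1 size factor per library, and a count of 0 is taken to allow 3 read pairs, which is a normalized count of 2.54 to 3.48 and covers counting error only. The test was limma, run on log2 of the normalized count plus 1 for the 16251 genes whose mean reached 10. A gene was called where its p-value, adjusted over all of these genes by the Benjamini-Hochberg method, was under 0.05 and its fold change exceeded 1.5. Adding 1 makes the changes of low genes look smaller than they are. Proser1, the targeted gene, had normalized counts between 2019 and 2153 in the WT libraries and was not lower in the libraries labelled PROSER1 KO, where it had 2338 to 2464. The count covers the whole gene and does not resolve the altered site, so it is no check of the labels. LSK gate genes (Kit, Ly6a, Cd34, Flt3, Slamf1, Cd48, Ptprc) summed to normalized counts between 105052 and 114631 in every library. The sum does not show the spread of its less abundant genes. Ly6a had 4006 to 6822 in WT and 3961 to 5682 in the labelled KO group, and Slamf1 290 to 412 and 390 to 478. Antibody genes of plasma cells stood high in both groups, with a summed normalized count over 11 plasma cell markers of about 1543530 to 3748380 in WT and 1711010 to 2658270 in the labelled KO group.

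GATA1 and GATA2 bind DNA at the letters GATAA, which read TTATC on the other strand. The windows from 250 bases before to 50 bases after the annotated start (RefSeq, GRCm38.p6, gene strand) were therefore searched for these letters on both strands. Of the 10 genes, 9 matched an entry, with 10 windows in all because Il1rl1 has 2 starts. The letters stood in 7 of the 10 windows and in 6 of the 9 genes, against 25.4% of all 32851 promoter windows. Ms4a2 held 3 matches, a number reached or passed by 0.938% of all windows, and the first Il1rl1 window held 2, reached by 5.27%. Mcpt8, Gzmb and Hdc held none in this window. Below are the windows of Cpa3, the most abundant gene of the group, of Ms4a2, with the most matches, and of Il1rl1 and Mcpt8, the pair with the largest log2 differences between the groups, with each match in capitals. They lie at chr3:20242132-20242431 (minus strand), chr19:11623670-11623969 (minus), chr1:40429320-40429619 (plus) and chr14:56085148-56085447 (minus).
Cpa3: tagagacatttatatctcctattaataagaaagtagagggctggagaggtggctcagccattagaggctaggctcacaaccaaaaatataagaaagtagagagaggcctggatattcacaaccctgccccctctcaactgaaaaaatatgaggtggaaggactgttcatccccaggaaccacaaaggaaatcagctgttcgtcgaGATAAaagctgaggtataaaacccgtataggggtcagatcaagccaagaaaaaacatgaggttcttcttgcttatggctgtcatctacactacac
Ms4a2: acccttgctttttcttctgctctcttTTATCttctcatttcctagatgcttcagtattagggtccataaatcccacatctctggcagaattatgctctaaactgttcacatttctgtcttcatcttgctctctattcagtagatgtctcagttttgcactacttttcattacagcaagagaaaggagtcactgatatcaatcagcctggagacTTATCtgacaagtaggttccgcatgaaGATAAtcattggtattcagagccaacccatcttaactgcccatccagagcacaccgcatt
Il1rl1: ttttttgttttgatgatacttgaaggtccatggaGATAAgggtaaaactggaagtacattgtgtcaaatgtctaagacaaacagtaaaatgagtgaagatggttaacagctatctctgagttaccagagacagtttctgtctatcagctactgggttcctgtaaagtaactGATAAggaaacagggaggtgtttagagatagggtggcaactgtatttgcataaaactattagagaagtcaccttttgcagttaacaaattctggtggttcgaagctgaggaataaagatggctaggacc
Mcpt8: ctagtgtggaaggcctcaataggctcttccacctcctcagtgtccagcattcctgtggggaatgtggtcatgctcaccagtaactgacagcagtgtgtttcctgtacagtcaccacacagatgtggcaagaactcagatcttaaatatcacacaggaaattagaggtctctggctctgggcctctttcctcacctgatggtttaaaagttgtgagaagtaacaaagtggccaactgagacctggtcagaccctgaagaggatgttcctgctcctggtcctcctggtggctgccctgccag
A match is a description of the letters, and binding was not measured in these libraries.

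All 10 genes were detected, and none was called between the groups by limma. Of the 9 genes tested, 0 were called higher, where 0.123% of all tested genes were, and 0 were called lower, where 0.135% of all tested genes were. By edgeR on the recovered read pairs none was called either, with 0.129% of all tested genes called higher and 0.117% called lower. By DESeq2, 1 of the 10 genes, Mcpt8, was called lower, against 0.45% of all 18903 genes tested in that direction and 0.423% in the other. At an unadjusted p under 0.05, limma picked 3 of the 9 genes (Cpa3, Mcpt8 and Il1rl1), against 9.73% of all tested genes, and edgeR and DESeq2 also picked 3. The groups did not overlap for Cpa3, higher in the libraries labelled PROSER1 KO, and for Mcpt8, lower there, which are 1 gene in each direction against 5.17% and 4.83% of all tested genes. The median log2 fold change of the 9 genes was -0.28, with 3 values above 0 and 6 below, whereas that of all 16251 tested genes was 0.0015. Since whole LSK fractions were sequenced, fewer cells of a type and less RNA per cell cannot be told apart in any of these values.

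**Figure D1:**
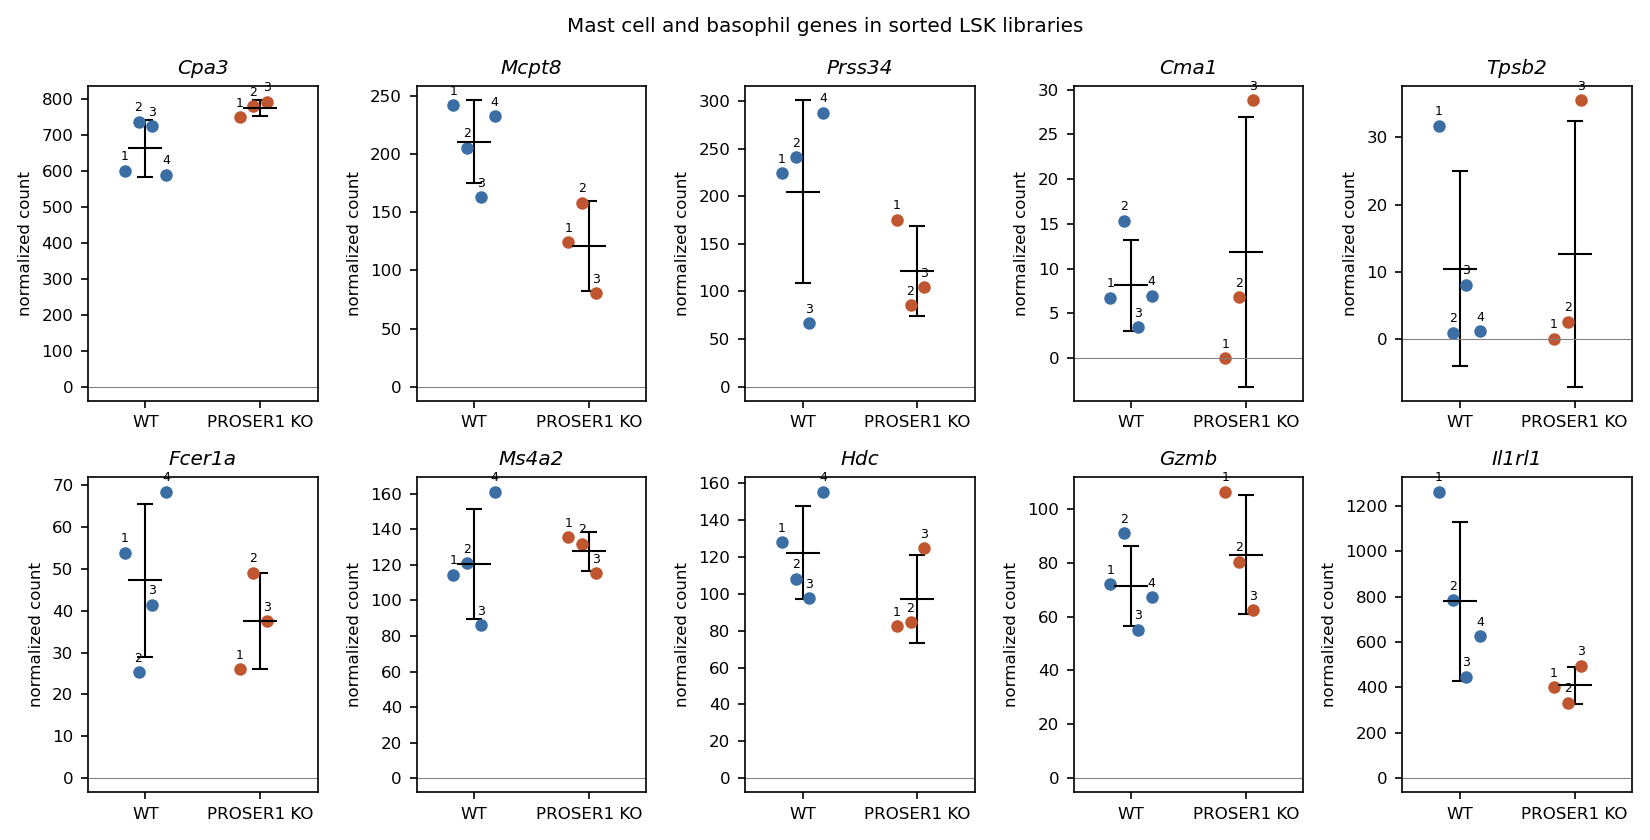
Normalized counts (linear axes that include 0) of the 10 genes, 1 point per library with its replicate number, for 4 WT and 3 PROSER1 KO libraries. The horizontal mark is the group mean and the bar its SD. The groups separate for Cpa3 and Mcpt8 and overlap in the other 8 panels.

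Cpa3 (ENSMUSG00000001865; chr3:20215620-20242181, minus strand, GRCm38) encodes carboxypeptidase A3, the protease that fills the granules of mast cells and basophils. Its normalized counts were 600, 736, 724 and 589 in WT replicates 1 to 4 and 749, 780 and 792 in the libraries labelled PROSER1 KO. Every library labelled PROSER1 KO thus lay above every WT library, and the 3 of them lay close together. WT averaged 662 ± 78.7 (SD, n = 4) and the labelled KO group 774 ± 22.2 (SD, n = 3). The log2 difference of 0.23 (standard error 0.099, 95% interval 0.0083 to 0.454) did not pass the limma test after adjustment (adjusted p = 0.488).

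Mcpt8 (ENSMUSG00000022157; chr14:56082166-56085273, minus strand), the protease by which basophils are recognized in the mouse, showed the opposite order. It had 242, 206, 163 and 233 normalized counts in WT replicates 1 to 4, and 124, 158 and 80.6 in the libraries labelled PROSER1 KO. The highest of the latter, replicate 2, lay just under the lowest WT library, replicate 3, and replicate 3 of the labelled KO group was the lowest of all 7. The group means of 211 ± 35.5 (SD, n = 4) and 121 ± 38.9 (SD, n = 3) differed 1.74-fold. The limma log2 difference was -0.83 (standard error 0.24, 95% interval -1.37 to -0.30, adjusted p = 0.280). Only DESeq2 called the gene (log2 difference -0.80, adjusted p = 0.0414), while edgeR gave an adjusted p of 0.320, and over all 18 alternatives the adjusted p ran from 0.0414 to 0.541. Without replicate 3 of the labelled KO group the limma log2 difference was -0.57 (adjusted p = 0.540).

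Prss34 (ENSMUSG00000056399; chr17:25298394-25300165, plus strand) encodes another basophil protease, mMCP-11. Its normalized counts of 224, 241, 66.7 and 287 in WT replicates 1 to 4 held both the highest and the lowest library of the 7. The libraries labelled PROSER1 KO had 175, 85.5 and 105. WT replicate 3 thus stood apart from the other WT libraries and lay below all 3 of the other group. The log2 difference was -0.62 (standard error 0.47, adjusted p = 0.709 by limma), and -1.09 without WT replicate 3 (adjusted p between 0.195 and 0.872 over all alternatives). WT replicate 3 also had the lowest sum of plasma cell markers of the 7 libraries (1543530). Among the WT libraries it had the lowest Prg2, which encodes the major basic protein of eosinophils (3121, against 4159 to 8190), while labelled KO replicate 2 was lower still (2764). Other eosinophil markers were split. Prg3 and Ccr3 were also lowest of WT in replicate 3, but Epx, Ear1, Ear2 and Ear6 were lowest of WT in replicate 2. The part of these markers in the Prss34 values was not tested.

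Cma1, Tpsb2 and Mcpt4, the proteases of mature connective tissue mast cells, were near the limit of detection in most libraries. Cma1 (chymase 1, ENSMUSG00000022225; chr14:55941451-55944675, minus strand) had 7, 17, 3 and 6 read pairs in WT replicates 1 to 4 and 0, 8 and 30 in replicates 1 to 3 of the labelled KO group. Tpsb2 (tryptase beta 2, ENSMUSG00000033825; chr17:25366305-25369098, plus strand) had 33, 1, 7 and 1 read pairs in WT and 0, 3 and 37 in the labelled KO group. In each of the 3 genes the labelled KO replicate 3 was the highest library and its replicate 1 had no read pair, which allows up to 3. The same labelled KO replicate 3 had the lowest value of the basophil gene Mcpt8, and WT replicate 1, second highest for Tpsb2, had the highest. Mcpt4, which lies 19.9 kb from Mcpt8, had normalized counts of 15.4, 7.21, 10.3 and 5.80 in WT and 0, 0 and 37.4 in the other group. The group means of Tpsb2 were 10.5 ± 14.6 (SD, n = 4) and 12.7 ± 19.8 (SD, n = 3), so that the SD exceeded the mean in both groups. Its limma log2 difference of -0.22 (standard error 1.35, adjusted p = 0.977) had the sign opposite to that of the means and turned to 0.25 by edgeR and 0.28 by DESeq2. Cma1, with a mean of 9.72, fell under the minimum for the test, and without that minimum its log2 difference was -0.41 (adjusted p = 0.915 by limma). Here too the sign was opposite to that of the means (8.12 ± 5.07, SD, n = 4, in WT and 11.9 ± 15.1, SD, n = 3, in the labelled KO group) and to that of DESeq2 (0.54, adjusted p = 0.974). Further products of mature mast cells were at or near 0: Tpsab1 and Mcpt9 had no read pair in any library, and Mrgprb2, the mast cell receptor for cationic peptides, did not exceed a normalized count of 5.77.

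**Figure D2:**
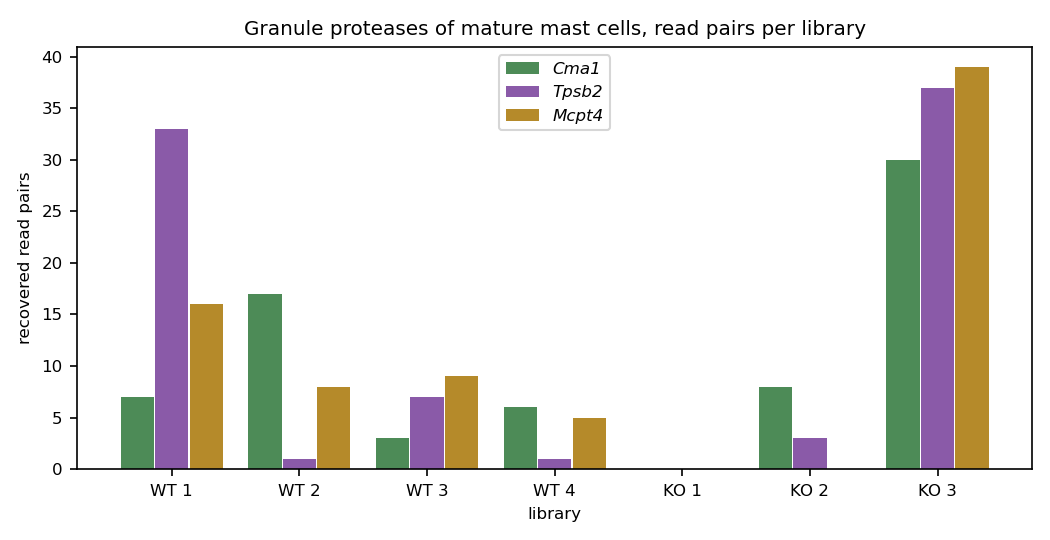
Recovered read pairs (linear axis from 0) of Cma1, Tpsb2 and Mcpt4, 1 group of bars per library (WT 1 to 4 and PROSER1 KO 1 to 3), without error bars because each bar is 1 library. KO 3 is highest for each gene (30, 37 and 39 read pairs), KO 1 has 0 for each, and WT 1 has 33 read pairs of Tpsb2.

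Gzmb (granzyme B, ENSMUSG00000015437; chr14:56258838-56262260, minus strand) lies at the other end of the same chymase locus as Cma1 and Mcpt8. It had 72.1, 91.0, 55.2 and 67.2 normalized counts in WT and 106, 80.4 and 62.4 in the libraries labelled PROSER1 KO. The groups overlapped, and the order of the labelled KO replicates was the reverse of that of Cma1 and Tpsb2, with replicate 1 highest and replicate 3 lowest. The log2 difference was 0.20 (standard error 0.25, adjusted p = 0.849 by limma) and 0.01 without replicate 1. That replicate also had the highest Gzma (111, against 21.8 to 52.9 in the other 6 libraries) and Cd3e (197, against 5.75 to 24.0), a killer cell protease and a T cell receptor chain. Other NK and T cell markers were split. Ccl5, Klrd1 and Cd8a were also highest there, whereas Nkg7, Ncr1, Klrb1c, Klrk1, Eomes and Tbx21 were highest in a WT library. Prf1 was 18.0 to 38.5 in WT and 41.3 to 43.2 in the labelled KO group. All labelled KO libraries thus lay above all WT libraries for Prf1, as for 5.17% of all tested genes. Cd4 was 170, 113 and 191 in labelled KO replicates 1 to 3, all below the WT libraries (200 to 287). Such an order held for 4.83% of all tested genes. The part of these genes in the Gzmb values was not tested. Summed over the 10 markers of NK and cytotoxic T cells, normalized counts were 2501 to 3660 in WT and 2812 to 3487 in the labelled KO group.

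The locus from Cma1 to Gzmb spans 320.8 kb, and 19 of its genes were in the table. Of these, 8 had a value of 0 in all 7 libraries, among them the granzyme genes Gzmd, Gzme, Gzmf, Gzmg and Gzmn, and 5 reached the minimum for the test (Mcpt4, Mcpt8, Ctsg, Gzmb and the pseudogene Gm5801). Ctsg, 14.6 kb from Mcpt8 on the same strand, encodes cathepsin G, which is made by neutrophil precursors and mast cells. Its normalized counts were 1604, 1637, 1998 and 1778 in WT and 1050, 1586 and 1282 in the libraries labelled PROSER1 KO. As for Mcpt8, every library labelled PROSER1 KO was below every WT library. The log2 difference of -0.44 (standard error 0.13) did not pass the limma test (adjusted p = 0.303) and was under the fold change minimum. By DESeq2 the adjusted p was 0.026, with a log2 difference of -0.42 that was again under that minimum. Gm5801 had a log2 difference of 0.25 (adjusted p = 0.888 by limma). Proteases of this locus are alike in sequence, and how read pairs that match several of them were assigned is not given in the sources used here.

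FcεRI consists of an IgE-binding α chain (Fcer1a), an amplifying β chain (Ms4a2) and a signalling γ chain (Fcer1g) that it shares with receptors for IgG. The α and β chains, found mostly on mast cells and basophils, did not pass the test. Fcer1a (ENSMUSG00000005339; chr1:173221284-173227214, minus strand) had normalized counts of 53.9, 25.2, 41.4 and 68.4 in WT and 26.1, 49.1 and 37.4 in the libraries labelled PROSER1 KO. The labelled KO values lay within the WT range (log2 difference -0.28, standard error 0.38, adjusted p = 0.867 by limma). Ms4a2 (ENSMUSG00000024680; chr19:11615523-11623719, minus strand) had 114, 121, 86.2 and 161 in WT and 136, 132 and 115 in the other group. Again all 3 labelled KO values lay within the WT range, and the log2 difference of 0.11 (95% interval -0.38 to 0.60, adjusted p = 0.915 by limma) was -0.037 without WT replicate 3.

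The γ chain passed the test. Fcer1g (chr1:171229572-171234365, minus strand) had 608, 455, 539 and 574 normalized counts in WT replicates 1 to 4, and 336, 251 and 269 in the libraries labelled PROSER1 KO. All labelled KO libraries were far below the lowest WT library. The means of 544 ± 65.5 (SD, n = 4) and 285 ± 44.6 (SD, n = 3) corresponded to a level 1.91-fold lower on the limma scale (log2 difference -0.93, standard error 0.14, adjusted p = 0.0277). The adjusted p was 0.0335 by edgeR and 5.9e-08 by DESeq2. The log2 difference stayed between -1.05 and -0.85 over all alternatives, but the adjusted p reached 0.118 by limma without the mean-variance trend. It was above the threshold in 5 of the 7 fits that left out 1 library (WT replicate 1, 3 or 4, with 0.0985, 0.0639 and 0.0818, and labelled KO replicate 2 or 3, with 0.111 and 0.145). Differences between the 3 chains in their response were not tested.

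**Figure D3:**
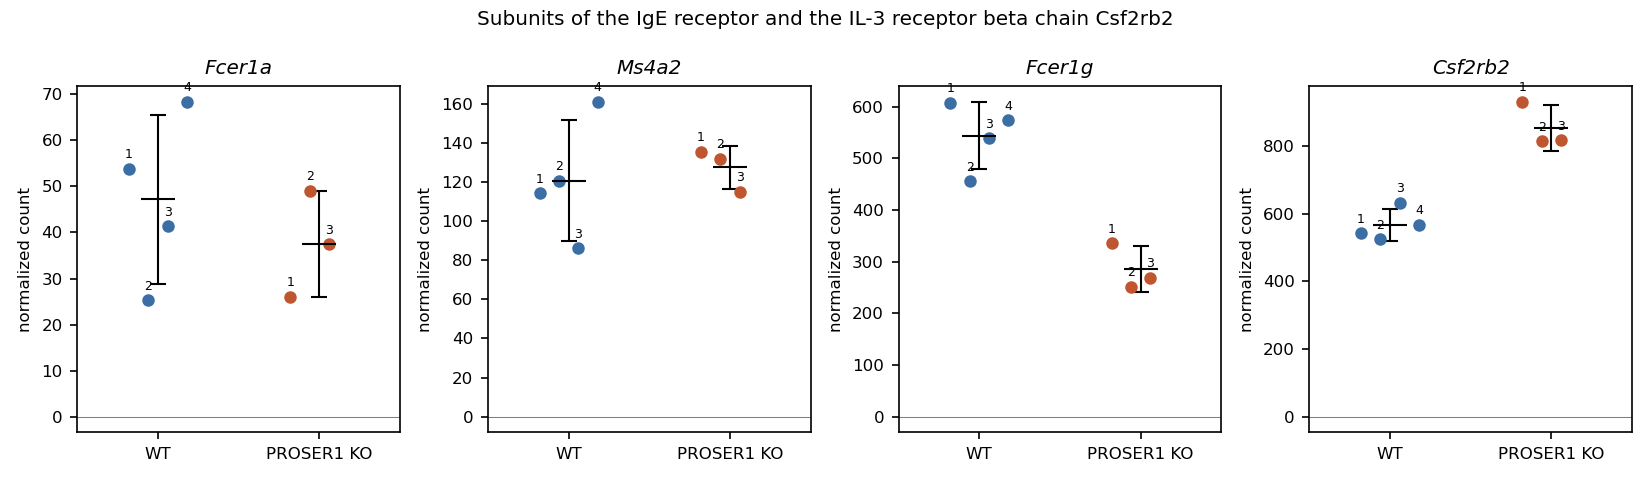
Normalized counts (linear axes that include 0) of the 3 chains of the IgE receptor and of Csf2rb2, 1 point per library with its replicate number, with group mean and SD for 4 WT and 3 PROSER1 KO libraries. Fcer1a and Ms4a2 overlap between the groups, Fcer1g lies at 455 to 608 in WT and 251 to 336 in PROSER1 KO, and Csf2rb2 at 524 to 632 and 813 to 931.

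Hdc (ENSMUSG00000027360; chr2:126593667-126619299, minus strand) encodes histidine decarboxylase, which makes histamine. Its normalized counts were 128, 108, 97.7 and 155 in WT and 82.4, 84.6 and 125 in the libraries labelled PROSER1 KO. Replicates 1 and 2 of the latter lay below all WT libraries, while replicate 3 lay within them. The log2 difference was -0.33 (standard error 0.23, 95% interval -0.84 to 0.18, adjusted p = 0.680 by limma).

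Il1rl1 (ENSMUSG00000026069; chr1:40429570-40465415, plus strand) encodes ST2, the receptor for the alarmin IL-33. It had 1262, 785, 446 and 626 normalized counts in WT replicates 1 to 4 and 400, 332 and 495 in the libraries labelled PROSER1 KO. WT replicate 1 was far above all others, and WT replicate 3 lay below the highest labelled KO library, so that the groups overlapped. WT averaged 780 ± 350 (SD, n = 4) and the labelled KO group 409 ± 82.2 (SD, n = 3), and the log2 difference of -0.84 (standard error 0.30, 95% interval -1.52 to -0.17) did not pass adjustment (adjusted p = 0.396 by limma). It was -0.58 without WT replicate 1 and -1.08 without WT replicate 3. The 7 tested markers of group 2 innate lymphoid cells had log2 differences below 0, as had 8032 of all 16251 tested genes. None of the 7 was called by limma, and their median was -0.097 (range -2.15 to -0.047). The list of 10 summed to 4711 to 7736 in WT, highest in replicate 1, and 4316 to 6356 in the labelled KO group. The defining cytokines of these cells were at or near 0 (Il5 at most 4.17 and Il13 at most 10.6). Their part in the Il1rl1 values was not tested.

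The nearest tested gene on each side of each member was looked up in turn, which gave 19 genes. Prss34 and Tpsb2 were each other's neighbor, so these 2 members are among the 19. Limma called 0 of the 19 genes. In 2 of them (Ctsg and Il18r1) all libraries labelled PROSER1 KO lay below all WT libraries, and in 0 they lay above, where 4.83% and 5.17% of all tested genes did. Il18r1 (chr1:40465552-40500854, plus strand), the IL-18 receptor that basophils and mast cells also use, starts 136 bases after the end of Il1rl1 on the same strand. Its normalized counts were 1799, 1476, 1259 and 1484 in WT and 1177, 813 and 917 in the libraries labelled PROSER1 KO. As for Il1rl1, WT replicate 1 was highest and labelled KO replicate 2 lowest. The log2 difference was -0.64 (standard error 0.14, adjusted p = 0.148 by limma), and DESeq2 called it with an adjusted p of 1.5e-04 (range over all alternatives up to 0.409). The neighbor on the other side, Il1rl2, 62.0 kb away, had a log2 difference of -0.09 (adjusted p = 0.773 by limma). Whether read pairs that run past the end of Il1rl1 contribute to Il18r1 was not tested.

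**Figure D4:**
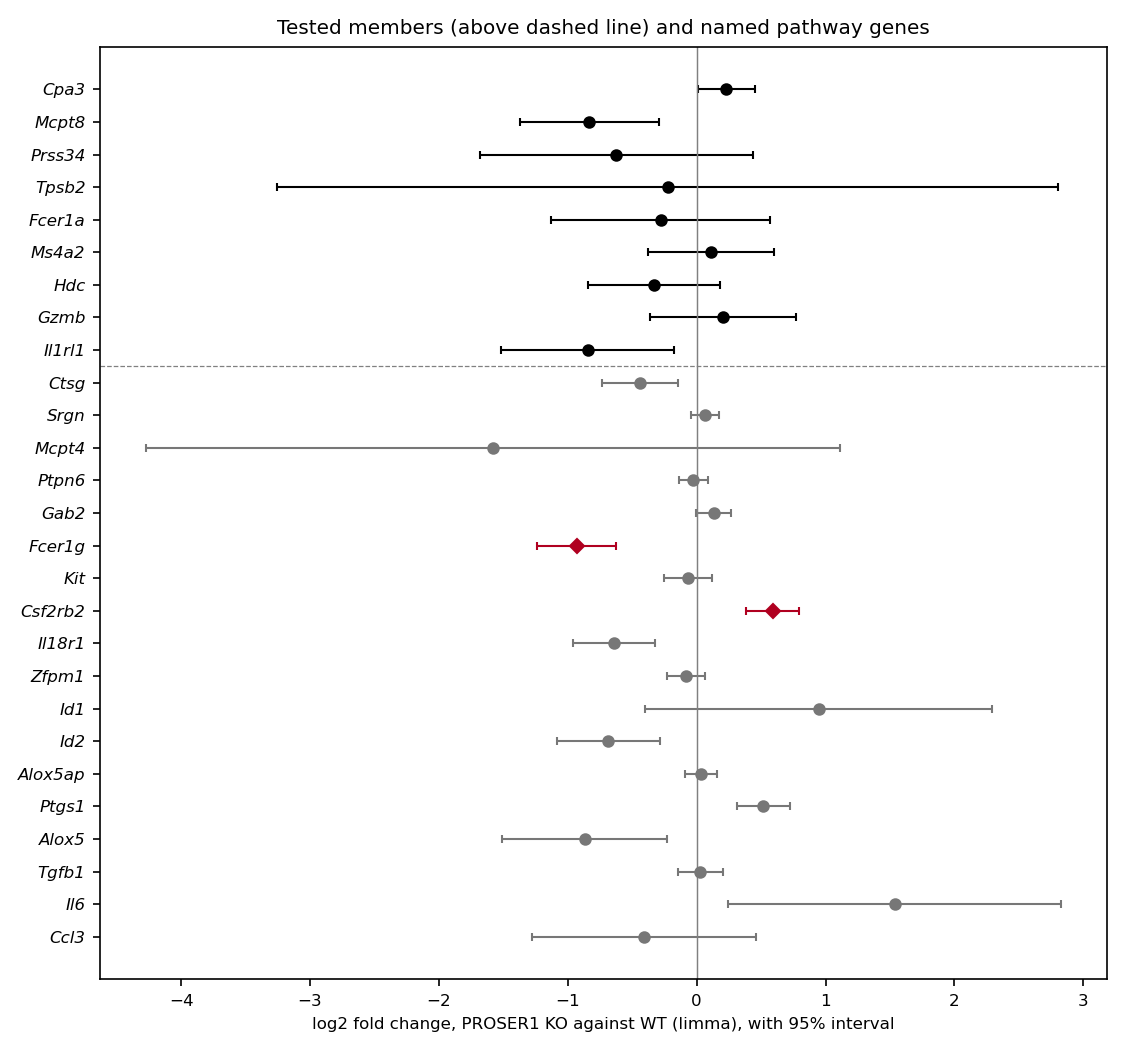
Log2 fold changes of PROSER1 KO against WT libraries (x axis, limma on log2(normalized count + 1), 4 against 3 libraries) with 95% intervals, for the 9 tested genes above the dashed line and the named genes of their pathways below it. Red diamonds are the called genes, Fcer1g at -0.93 and Csf2rb2 at 0.59. The intervals of Tpsb2 and Mcpt4 are the widest, and among the 9 genes those of Cpa3, Mcpt8 and Il1rl1 exclude 0.

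The wider pathways of these cells were read from 6 lists with 79 other genes, of which 66 were tested. Limma called 1 of them higher (Csf2rb2, against 0.123% of all tested genes) and 1 lower (Fcer1g, against 0.135%). By edgeR the same 2 were called (0.129% and 0.117% of all genes), and by DESeq2 5 were called, of which 1 was higher (0.423%) and 4 lower (0.45%). The median log2 fold change was 0.0060. Among the 12 other granule genes, 5 were tested and none was called by limma, edgeR or DESeq2. Their median of -0.44 is the value of Ctsg. The lowest was Mcpt4 at -1.58 (standard error 1.20, adjusted p = 0.709 by limma), which turned to 0.35 by edgeR and 0.36 by DESeq2. Serglycin (Srgn), the proteoglycan that holds proteases in granules and the most abundant per kb of this list, had a log2 difference of 0.07 (adjusted p = 0.697 by limma). All 15 genes of IgE receptor signalling were tested, and Fcer1g was the only one called by limma, edgeR or DESeq2. The median over these 15 was 0.01, the phosphatase Ptpn6 had -0.02, and the adaptor Gab2 had the highest value of the list at 0.13 (adjusted p = 0.524 by limma).

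Csf2rb2 was the 1 gene called by limma and by edgeR among the 13 tested cytokine and surface receptors, and DESeq2 also called Il18r1. It encodes the β chain that mice use for IL-3, the main growth factor of basophils. Its normalized counts were 542, 524, 632 and 567 in WT and 931, 813 and 816 in the libraries labelled PROSER1 KO. All labelled KO libraries lay above all WT libraries, and the gene rose by a log2 difference of 0.59 (1.51-fold, standard error 0.091, adjusted p = 0.0352 by limma and 0.0335 by edgeR). The fold change is close to the minimum of 1.5, and the call held in 9 of 18 alternatives, over which the adjusted p ran from 7.7e-06 to 0.157. It was lost in 6 of the 7 fits without 1 library, all but that without WT replicate 3, with adjusted p-values up to 0.137. Csf2rb, the β chain shared by IL-3, IL-5 and GM-CSF and a near copy of Csf2rb2, had 2650 to 3172 in WT and 3148 to 3553 in the other group (log2 difference 0.23, adjusted p = 0.309 by limma), and how read pairs that match both were assigned is not given in the sources used here. Kit, the stem cell factor receptor on which mast cells depend and on which the sort gated, had a log2 difference of -0.07 (adjusted p = 0.847 by limma).

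Limma and edgeR called none of the 16 transcription factors of the lineage, DESeq2 called 1 (Id2), and their median log2 fold change was -0.0011. Gata2, required for both cell types, had 6609 to 7547 normalized counts in WT and 6401 to 7472 in the labelled KO group (log2 difference -0.02, adjusted p = 0.960 by limma), and Gata1 had 383 to 477 and 316 to 537 (0.00, adjusted p = 0.999). Zfpm1, the GATA cofactor FOG1 and the most abundant of the list per kb, had -0.08 (adjusted p = 0.728). The extremes of the list were a pair of related inhibitors of helix-loop-helix factors. Id2 had 1104, 720, 640 and 660 in WT and 523, 441 and 459 in the labelled KO group, which lay below all WT libraries (log2 difference -0.69, adjusted p = 0.213 by limma and 0.0018 by DESeq2, up to 0.480 over the alternatives). Id1, with normalized counts of 3.45 to 30.5, had 0.95 (adjusted p = 0.651 by limma).

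Among the genes of amine and lipid mediators, 8 of 10 were tested, with a median of 0.11. Limma and edgeR called none of them, and DESeq2 called 1 (Alox5). Ptgs1, the cyclooxygenase that starts prostaglandin synthesis, had 1784, 2197, 1720 and 1693 in WT and 2507, 2640 and 2755 in the libraries labelled PROSER1 KO. All of the latter were higher, with a log2 difference of 0.52 (standard error 0.090, adjusted p = 0.0617 by limma), which is 1.43-fold and under the fold change minimum. The adjusted p was 6.2e-06 by DESeq2 and 0.012 with robust variance, again under that minimum, and reached 0.278 over the alternatives. Without WT replicate 2 the gene was called (log2 difference 0.60, adjusted p = 0.0113 by limma). Alox5, the lipoxygenase that starts leukotriene synthesis, had 425, 267, 160 and 233 in WT and 127, 129 and 164 in the labelled KO group. WT replicate 1 was highest, as for Il1rl1, Il18r1 and Id2, and the log2 difference was -0.87 (adjusted p = 0.357 by limma and 0.0205 by DESeq2, up to 0.562 over the alternatives). Its partner protein Alox5ap had 0.04 (adjusted p = 0.891 by limma). Of the 10 cytokines and chemokines, 9 were tested and none was called by limma, edgeR or DESeq2, with a median of 0.03. Il6, at 3.45 to 9.62 in WT and 8.35, 34.7 and 16.3 in the labelled KO group, had the highest log2 difference at 1.54 (adjusted p = 0.423 by limma), Ccl3 the lowest at -0.41 (adjusted p = 0.780), and Tgfb1, the most abundant per kb, 0.03 (adjusted p = 0.946).

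To compare levels between the 10 genes, normalized counts were divided by the merged exon length in kb. Cpa3 was the highest at 468 per kb over all libraries, above 71.0% of the 16195 tested genes with an annotated length. It was followed by Mcpt8 (173), Prss34 (139), Il1rl1 (90.0), Gzmb (53.2), Ms4a2 (43.9), Fcer1a (43.2), Hdc (17.5), Cma1 (8.92) and Tpsb2 (7.16), all in normalized counts per kb. Only at the steps from Cpa3 to Mcpt8 and from Fcer1a to Hdc did all libraries of the higher gene lie above all libraries of the lower. All other neighbors in this order overlapped between libraries. The order was the same with the length of the longest transcript. Fcer1g, at 622 per kb in WT and 326 in the labelled KO group, lay above Fcer1a and Ms4a2, with which it forms the receptor, in both groups. Its mean was above that of Cpa3 in WT (437) and below it in the labelled KO group (510). Summed over the 10 genes, normalized counts were 2735, 2329, 1692 and 2196 in WT and 1798, 1711 and 1877 in the libraries labelled PROSER1 KO.

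**Figure D5:**
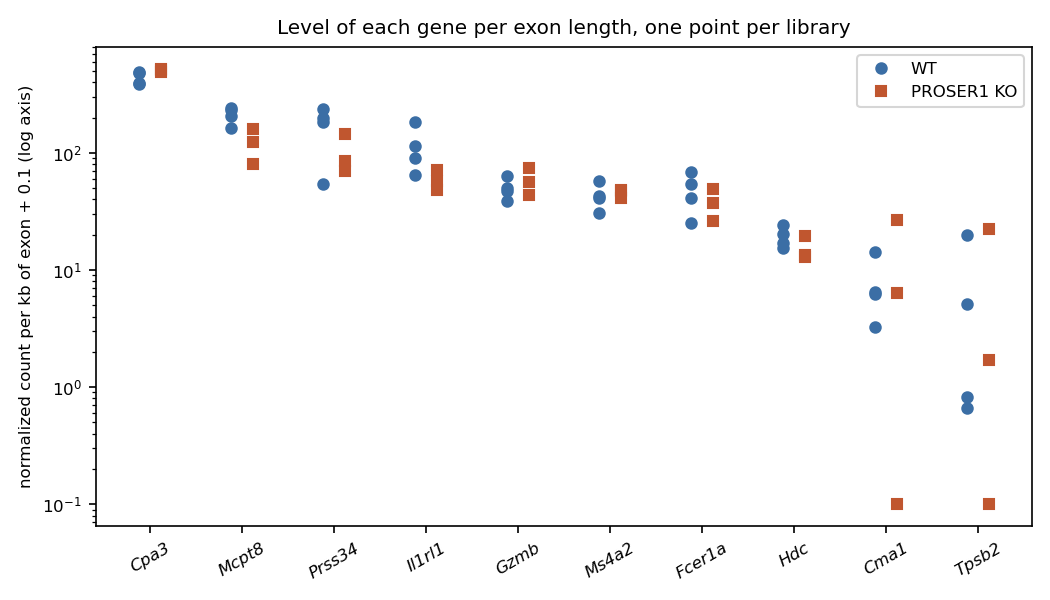
Normalized count per kb of merged exon (y axis, logarithmic, 0.1 added so that values of 0 can be drawn) of the 10 genes in order of their mean level, 1 point per library, WT as circles and PROSER1 KO as squares. Cpa3 lies at 388 to 522 per kb and does not overlap with any other gene, and Cma1 and Tpsb2 spread from 0 to 26.4 and 22.3 per kb.

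Across the 7 libraries the 10 genes did not share 1 pattern. The mean of the standardized values of the 9 tested genes served as a profile, with which Prss34 (r = 0.85), Il1rl1 (0.78) and Hdc (0.74) correlated most and Cpa3 (-0.78) went the other way. These coefficients include the gene itself in the profile and are given as a description over 7 libraries. The 5 other tested genes most like this profile were Hsf4 (r = 0.98), Hsd11b1 (0.98), Gm37716 (0.97), Gm43703 (0.96) and Btd (0.96). In each of the 5 genes WT replicates 1 and 4 were the highest libraries and WT replicate 3 the lowest, as in the sum of plasma cell markers (2601880, 2149920, 1543530 and 3748380 in WT and 2097210, 1711010 and 2658270 in the labelled KO group) WT replicate 3 was lowest and WT replicate 4 highest. Whether plasma cell RNA and this profile are related was not tested. Marker sums of the other lineages overlapped between the groups. Summed normalized counts over the neutrophil precursor list were 28628 to 32073 in WT and 25583 to 31435 in the labelled KO group, over the megakaryocyte and erythroid list 25946 to 29696 and 27426 to 30722. They were, over the plasmacytoid dendritic cell list 15971 to 21230 and 16564 to 21820, over the eosinophil list 3468 to 8659 and 3145 to 4583, and over the genes of the lineage antibodies 544 to 625 and 471 to 775. Most of the eosinophil sum came from the single gene Prg2, at 3121 to 8190 in WT and 2764 to 4151 in the labelled KO group.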

How the data were processed

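Reads of polyA RNA from a directional library kit were trimmed with Trimmomatic, mapped to mm10 (GRCm38) with STAR and counted as read pairs per gene with featureCounts by the authors, per their methods and processing notes. Versions and the strand setting are not given in the sources used here. The authors deposited a normalized signal, which is the count divided by 1 DESeq2 size factor per library. Division by the step between the low values of a library gave back its read pairs (100% of values whole within 0.01). limma 3.58.1 in R 4.3.3 (lmFit, eBayes with trend, pseudocount 1, mean of at least 10) was the main test, with edgeR 4.0.16 (quasi-likelihood) and DESeq2 1.42.0 on recovered read pairs as alternatives. Further settings tried were a pseudocount of 0.1 or of 10, a minimum mean of 50 or none, robust variance, omission of the trend, quantile and TMM normalization, no fold change minimum, the replicate number as a block, and each library left out. The procedures were tested on simulated data. Exon lengths and coordinates come from GENCODE M21 (GRCm38), promoters from RefSeq.

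The members and lists were chosen with earlier results of these data known. Genes named were the members, called genes of the pathway lists, the most abundant gene per kb and the extremes of each list, tested genes of the chymase locus, the 5 genes most like the members' profile, and genes of the sort. Gata1, Gata2, Csf2rb, Gzma, Cd3e, Il5, Il13, Prg2, Tpsab1, Mcpt9, Mrgprb2, the untested granzymes and the neighbor genes were named after their values were seen. So were the other single markers of eosinophils, NK cells and T cells. The neighbor search was added after the data were seen.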

Additional observations from a re-analysis of the deposited data

How the results depend on the processing

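None of the 9 tested genes was called in the limma and edgeR fits, and DESeq2 called 1 (Mcpt8). Over all genes, 42 were called by limma, 165 by DESeq2, 17 without the mean-variance trend, 80 with robust variance, and 23 to 42 with 1 library left out. In the pathway lists, 2 genes were called by limma, 5 by DESeq2, 0 without the trend, 1 with a pseudocount of 10, 1 with the replicate block, and 0 to 2 with 1 library left out. Signs turned for Tpsb2, which was -0.22 in the main test, 0.039 with a pseudocount of 10, 0.25 by edgeR and 0.28 by DESeq2. It ran from -0.77 to 0.95 over the fits with 1 library left out. Fits without WT replicate 1 or labelled KO replicate 3 did not test Tpsb2, since its mean then fell under the minimum. Signs also turned for Mcpt4 (-1.58 in the main test, 0.35 by edgeR and 0.36 by DESeq2). Mcpt4 fell under the minimum without labelled KO replicate 3. For Cma1, below the minimum, the sign turned between limma without a filter (-0.41) and DESeq2 (0.54). Values near 0 also turned for Ms4a2 (-0.037 to 0.26 with 1 library left out), Ptpn6 (-0.069 to 0.0025) and Tgfb1 (-0.026 with the replicate block, -0.026 to 0.092 with 1 library left out). The cause was not tested. Same-numbered libraries of the groups correlated at 0.023, 0.058 and -0.11 in their deviations from the group means, so the numbers were not taken as pairs, and the block called 35 genes in all and 0 of the members.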
